A study of Homo sapiens with 6 samples.

Results

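The genes described here encode the proteins of the cytosolic ribosome, taken as the protein-coding genes whose symbols begin with RPL or RPS followed by a digit, together with RPLP0, RPLP1, RPLP2 and RPSA. Ribosomal S6 kinases, RPS4Y genes, hyphenated readthrough names and RPS27L were left out by the same rule. This gave 84 of the 24526 genes in the count table. Of these, 46 encode proteins of the large subunit, 31 encode proteins of the small subunit, 6 are diverged copies of large-subunit genes, and RPS19BP1 enters by its name although it encodes a binding partner of a ribosomal protein. The rule uses symbols and gene type, not expression values.

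The ribosome joins a small subunit, which reads the mRNA, to a large subunit, which forms the peptide bond. Its proteins are made in near equal amounts from very abundant, short mRNAs, and many of these carry a pyrimidine-rich tract at the 5′ end through which mTOR signalling controls their translation. In melanoma, as in other growing tumours, ribosome production accounts for much of the cost of cell growth.

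RNA was measured in WM266.4 cells, an established human melanoma line, with 3 libraries per group. The control.si group was transfected with a negative control siRNA and the RIPK4.si group with an siRNA against RIPK4, a serine/threonine kinase. Both groups were taken 48 h after transfection and each used 1 siRNA, so the effect of the target and of that siRNA sequence cannot be told apart. Silencing was transient, and the replicates were described as independent experiments. Counts summed to between 28464057 and 31688095 per library, and no sequencing batch was named in the labels.

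RIPK4 had 2656, 2298 and 1739 counts in control.si replicates 1 to 3, and 585, 482 and 670 in the RIPK4.si replicates, or 72.3 ± 15.9 and 19.4 ± 2.48 CPM (counts scaled to library size; mean ± SD, n = 3). Its level fell to 26.8% of the control mean, a log2 fold change of -1.90 ± 0.20 (SE; adjusted p = 0.0102, edgeR's quasi-likelihood test, Benjamini-Hochberg adjusted). The call was lost without control.si replicate 2 or without any 1 of the RIPK4.si replicates (adjusted p of 0.0622 to 0.106, edgeR), with log2 fold changes of -1.98 to -1.79. The melanocyte markers MITF, SOX10, PMEL, MLANA, TYR, TYRP1, DCT and S100B all passed the filter on low counts, while keratinocyte KRT5 and KRT14 and leukocyte PTPRC and CD3E stayed below 1 CPM in each library. Of the 8 melanocyte markers, 1 was called by edgeR's quasi-likelihood test (PMEL, -1.30 ± 0.15), against 0.767% of all genes tested, 3 were called by DESeq2 (2.91% of all genes) and 2 with each library's GC trend removed (3.42% of all genes). An unadjusted p under 0.05 was found for 4 of the 8 (PMEL, TYR, DCT and S100B), all lower in RIPK4.si, against 10.8% of all genes. MITF (0.042), MLANA (0.062) and TYRP1 (0.36) had log2 fold changes above 0, and SOX10 had -0.15. Of the fibroblast markers, COL1A2 ranged from 510.1 to 1039 CPM and LUM reached 1.43 CPM, and COL1A1 and DCN were near 0.

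A 5′ tract was searched for in RefSeq promoters of GRCh38.p14 as a C at the annotated transcription start followed by at least 4 further C or T, on the strand of the gene. Promoters were found for 66 of the 84 genes, and 47 of the 66 (71.2%) had the tract, against 802 of 11902 other protein-coding genes (6.74%) and 4.07% of all 35116 promoters. The tract was found in 13 of 31 translation factor genes (41.9%), in 7 of 51 ribosome assembly genes (13.7%) and in 6 of 68 mitochondrial ribosomal protein genes (8.82%). The windows below run from 12 bases before the start to 18 bases from it, 5′ to 3′, with the pyrimidine run from the start in capitals. The P-stalk genes are shown because RPLP0 had the highest fitted difference of the family. RPL22L1, RPSA, RPS29, RPL36 and RPL7L1 are shown as some of the genes with the highest or lowest fitted differences. RPS6 is shown as a gene near the median of the family.
RPLP0: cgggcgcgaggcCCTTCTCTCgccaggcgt
RPLP1: taggcgcgagagCCCCTTTCCTCagctgcc
RPLP2: cgtcggcgccttCCTTTTCCTCCCTgtcgc
RPL22L1: ggccgtagcttcCTCTCTgctctcgcggcc
RPL36: cgcggcgccagcCCTTCCgccacggccgtc
RPSA: cctgccgcctgtCTTTTCCgtgctacctgc
RPS6: cggaagttggccCTCTTTTCCgtggcgcct
RPS29: cgagcgcgcagctggcagcggtggttgttt
RPL7L1: aagtgcggcgccgtagctaggagcggacgc
The P-stalk genes RPLP0 (chr12:120201094-120201123, minus strand), RPLP1 (chr15:69452806-69452835, plus strand) and RPLP2 (chr11:809955-809984, plus strand) had runs of 9, 11 and 13 pyrimidines. RPL22L1 (chr3:170870178-170870207, minus strand) and RPL36 (chr19:5690283-5690312, plus strand) each had a run of 6. RPSA (chr3:39406708-39406737, plus strand) had 7 and RPS6 (chr9:19380219-19380248, minus strand) had 9. RPS29 (chr14:49598693-49598722, minus strand) and RPL7L1 (chr6:42879604-42879633, plus strand) had none at the annotated start.

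Among the 82 genes that passed the filter on low counts, RPLP0 had the largest fitted difference. The family otherwise differed more among the control.si libraries than between the groups. With edgeR's quasi-likelihood test, 0 of the 82 genes were called at an adjusted p under 0.05, against 0.767% of the 16297 genes tested. At an unadjusted p under 0.05 there was 1 gene, RPLP0, against 10.8% of all genes. DESeq2 called 1 gene, RPLP0 (2.91% of all genes called, 1.47% with RIPK4.si higher). At an unadjusted p under 0.05 in DESeq2 there were 2, RPLP0 and RPL22L1, and 1790 of 24526 among all genes. With each library's GC trend removed, edgeR also called 1 gene, RPLP0 (3.42% of all genes called, 1.7% with RIPK4.si higher). The 2 genes outside the test were RPL3L, a copy used in striated muscle, and RPS10.

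RPLP0 (ENSG00000089157.16, GRCh38 chr12:120196699-120201235, minus strand) encodes the base protein of the P-stalk, the flexible arm of the large subunit that recruits elongation factors. It had 873.4, 709.6 and 475.8 CPM in control.si replicates 1 to 3, and 1227, 1606 and 1218 CPM in the RIPK4.si replicates. Every RIPK4.si library was above every control.si library, the only gene of the 82 for which the groups did not overlap (17.6% of all genes did not overlap, 8.23% with RIPK4.si higher). The means were 686.3 ± 199.9 and 1350 ± 221.4 CPM (SD, n = 3), a 1.97-fold difference. The log2 fold change was 0.98 ± 0.23 (SE), with an unadjusted p of 0.00227 and an adjusted p of 0.118 in edgeR's quasi-likelihood test, so that the difference was not called. DESeq2 gave a log2 fold change of 0.99 with an adjusted p of 0.00606, and edgeR after removal of each library's GC trend gave 1.01 with an adjusted p of 0.0344. Leaving out 1 library at a time gave log2 fold changes of 0.77 to 1.20 and adjusted p-values of 0.0660 to 0.424. The exact permutation test on CPM (two-sided) gave p = 0.1, the smallest that 3 against 3 libraries allow.

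As a percent of the counts of all 84 genes, itself included, RPLP0 again did not overlap between the groups. It took 1.54%, 1.67% and 1.58% of these counts in control.si replicates 1 to 3, and 2.70%, 2.81% and 3.02% in the RIPK4.si replicates. Among all genes, counts relative to this sum did not overlap for 11.4%, with 2.67% higher in RIPK4.si. The control.si libraries, which spanned a wide range in CPM, lay close together on this scale. The ratio of the means was 1.78, against 1.97 in CPM. The exons of RPLP0 overlap those of no other annotated gene. The pseudogene rows RPLP0P2 (at most 94 counts) and RPLP0P6 (at most 54 counts) were small beside the 15114 to 46389 counts of RPLP0.

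RPLP1 and RPLP2, the acidic proteins that bind RPLP0 as dimers, did not separate the groups. RPLP1 had 894.4, 668.7 and 488.0 CPM in control.si and 637.0, 828.6 and 729.5 CPM in RIPK4.si, and its log2 fold change was 0.098 ± 0.23. RPLP2 had 322.5, 201.4 and 144.4 CPM in control.si and 259.8, 256.8 and 262.5 CPM in RIPK4.si, and its log2 fold change was 0.22 ± 0.26. In both, the RIPK4.si values lay inside the control.si range. RPL12, which forms the stalk base with RPLP0, had a log2 fold change of 0.050 ± 0.25. The count ratio of RPLP0 to RPLP1 was 0.977, 1.06 and 0.975 in control.si and 1.93, 1.94 and 1.67 in RIPK4.si, and the ratios of RPLP0 to RPLP2 and to RPL12 did not overlap between the groups either. The values of RPLP0 itself did not overlap, so these ratios are not separate evidence. The ratio of RPLP2 to RPLP1 did overlap, with means of 0.319 and 0.359.

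**Figure D1:**
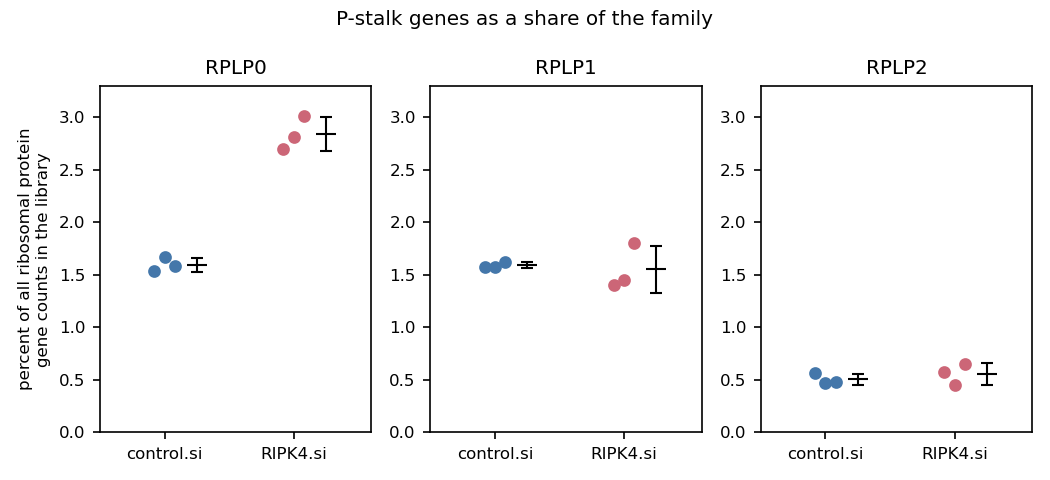
Counts of RPLP0, RPLP1 and RPLP2 as a percent of all ribosomal protein gene counts in a library (vertical axis), with 1 point per library and the mean ± SD of 3 libraries beside them. RPLP0 was at 1.54 to 1.67% in control.si and 2.70 to 3.02% in RIPK4.si, while the shares of RPLP1 and RPLP2 overlapped between the groups.

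The other 81 genes tested had log2 fold changes between -0.50 (RPL36) and 0.53 (RPL22L1), with adjusted p-values of at least 0.499 (edgeR's quasi-likelihood test). Their differences were small: of the 82 genes, 59 lay within 0.2 of zero on the log2 scale and 80 within 0.5. Standard errors ran from 0.18 to 0.50, with a median of 0.26, so a difference of the size of most of these values was not detectable with 3 libraries per group. The fitted value was above 0 for 68 of the 82 genes, against 46.6% of all genes tested, and the median was 0.10, against -0.02 for all genes. Large-subunit genes had a median of 0.09 and small-subunit genes 0.13.

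**Figure D2:**
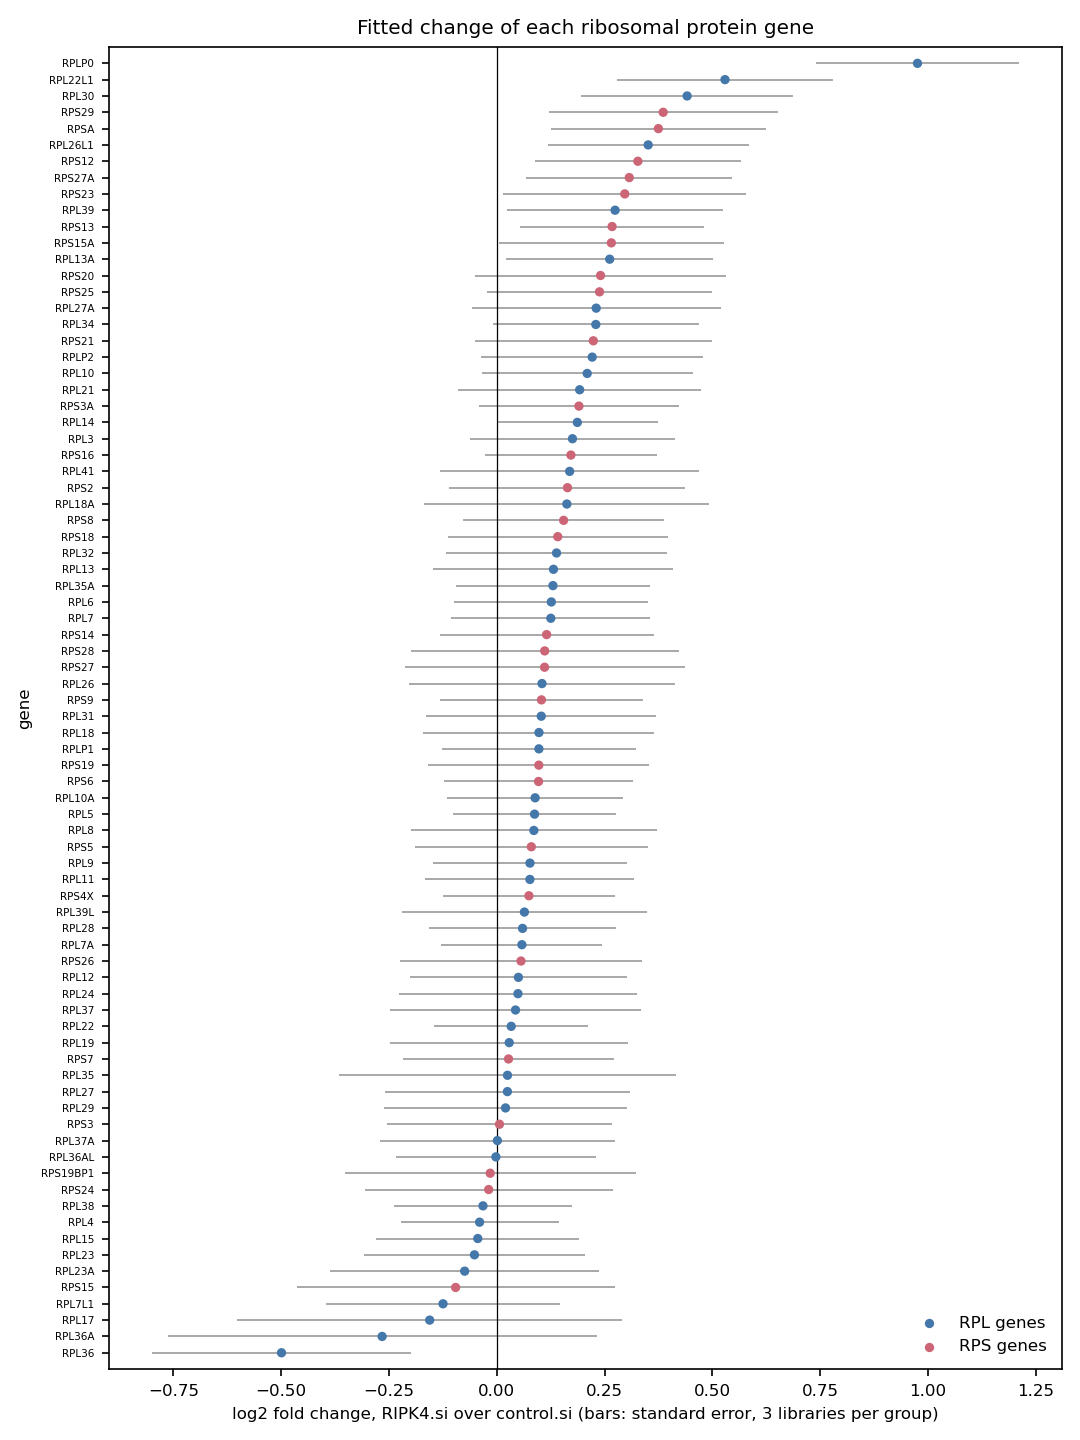
Fitted log2 fold change of RIPK4.si over control.si (horizontal axis) for 80 of the 82 genes tested, ordered by value, with bars of 1 standard error and colour by RPL or RPS symbol. RPLP0 at 0.98 was the highest, followed by RPL22L1 at 0.53, and RPL36 at -0.50 was the lowest.

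This slight excess above zero rested on single libraries. The 84 genes together took 5.54%, 4.18% and 3.18% of all counts in control.si replicates 1 to 3, and 4.68%, 5.37% and 4.08% in the RIPK4.si replicates. The control.si libraries held both the highest and the lowest share, and the means of 4.30 ± 1.19% and 4.71 ± 0.64% (SD, n = 3) differed by less than the spread within control.si. Without control.si replicate 1 the median log2 fold change was 0.39 and 20 of the genes had an unadjusted p under 0.05, where 2268 of 16744 genes did. Without control.si replicate 3 the median was -0.08, and without RIPK4.si replicate 2 it was -0.04. In each of these fits 0 of the genes were called by edgeR's quasi-likelihood test. The values are shares of sequenced RNA, so fewer cells with a transcript and less of it per cell cannot be told apart.

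Almost the whole family moved together from library to library. The median deviation of a gene from its own mean over the 6 libraries was 0.37, -0.05 and -0.56 (log2 CPM) in control.si replicates 1 to 3, and 0.04, 0.34 and -0.14 in the RIPK4.si replicates. Control.si replicate 3 was the lowest library for 76 of the 82 genes, and the highest was control.si replicate 1 or RIPK4.si replicate 2 for 78 of them. The median coefficient of variation was 31.5% in control.si and 18.8% in RIPK4.si for the 74 genes with at least 50 CPM in every library, against 14.4% and 10.9% for all 3129 genes at that level. Large- and small-subunit genes shifted alike: the ratio of small- to large-subunit counts stayed between 0.628 and 0.666 in all libraries, with overlapping groups.

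**Figure D3:**
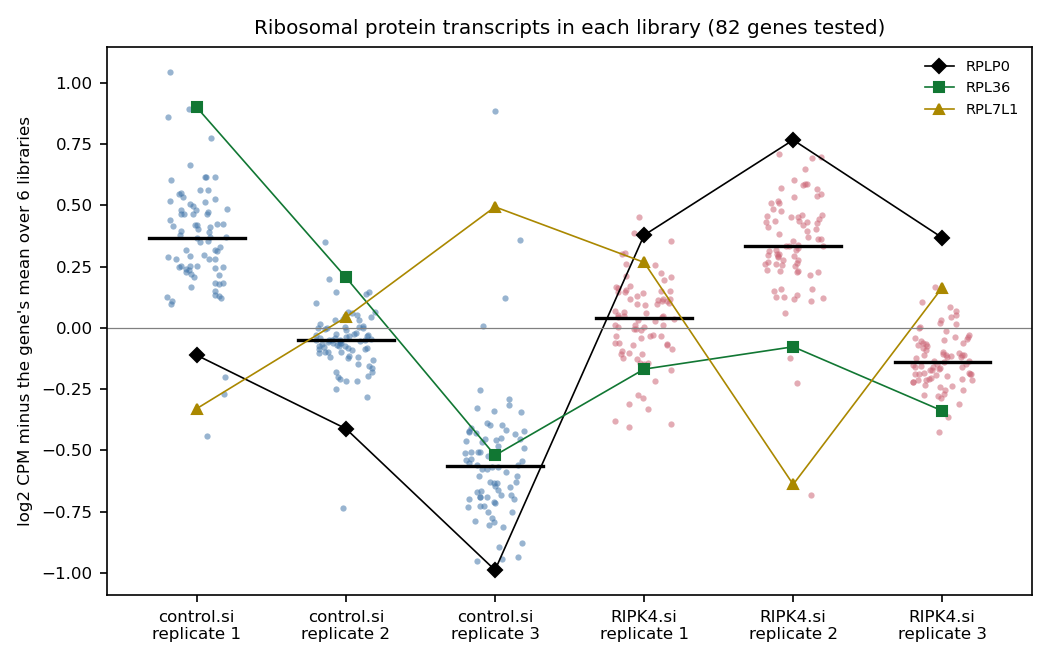
Log2 CPM of each of the 82 genes tested minus its mean over the 6 libraries (vertical axis), by library, with 1 point per gene and a bar at the median. Medians ran from 0.37 in control.si replicate 1 to -0.56 in control.si replicate 3, while RPLP0 was higher in every RIPK4.si library than in any control.si library and RPL7L1 moved against the family.

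The same libraries also differed over all genes by base composition. Across all genes, the deviation in a library correlated with GC content of the transcript at a Spearman's rho of 0.56 in control.si replicate 1 and -0.56 in control.si replicate 3, and between -0.08 and 0.17 in the RIPK4.si libraries (genes of one library are not independent replicates). The median GC content was 47.5% for the ribosomal protein genes and 48.5% for all genes, and the median transcript length was 803 and 2905 bases. The part of base composition and length in the family's shift was not tested. With the GC trend removed, the median log2 fold change of the family was 0.13.

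By CPM per kilobase of transcript, averaged over the 6 libraries, the levels of RPS27 (1996), RPS18 (1938), RPL39 (1916) and RPL41 (1642) were among the highest. RPL41 had 1398, 1094 and 644.1 CPM in control.si and 965.6, 1599 and 961.0 in RIPK4.si, a wider proportional range than that which separates these 4 genes. By CPM averaged over all 6 libraries the most abundant were RPL4, RPS4X, RPSA, RPL3 and RPL41. The order differed by group: in RIPK4.si alone the mean of RPSA (1512) was above that of RPS4X (1456), and that of RPLP0 (1350) above those of RPL3 (1268) and RPL41 (1175). RPL4, which lines the exit tunnel, had 1686 ± 327.4 CPM in control.si and 1640 ± 137.0 in RIPK4.si (log2 fold change -0.040 ± 0.18). RPL3, which lies beside the peptidyl transferase centre, had 1123 ± 363.0 and 1268 ± 153.6 CPM (0.18 ± 0.24), and the X-linked RPS4X had 1383 ± 298.9 and 1456 ± 208.4 CPM (0.075 ± 0.20).

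RPL5, RPL11, RPS6, RPS3, RPL10, RPS27A and RPS19 have known roles outside translation or in disease, and the CPM values of the groups overlapped for each of them. RPL5 and RPL11, which with 5S rRNA bind MDM2 and so hold p53 stable, had 632.9, 540.7 and 437.3 CPM and 1146, 847.4 and 597.5 CPM in control.si. Their RIPK4.si values were 564.9, 660.4 and 486.6 CPM and 906.3, 1069 and 758.0 CPM, of which only RPL5 in replicate 2 was outside the control range, with log2 fold changes of 0.088 ± 0.19 and 0.077 ± 0.24. RPS6, the substrate of S6 kinase, had log2 fold change 0.097 ± 0.22, RPS3, which also acts in DNA repair, had 0.0063 ± 0.26, and RPL10, at the tRNA sites, had 0.21 ± 0.25. RPS27A, made as a fusion with ubiquitin, had 795.2 ± 209.5 CPM in control.si and 984.1 ± 237.7 in RIPK4.si (0.31 ± 0.24, and 0.12 without RIPK4.si replicate 2, 0.15 without control.si replicate 3 and 0.54 without control.si replicate 1). Other annotated genes overlap 53.7% of the transcript of RPL10, 31.7% of that of RPS27A and 20.6% of that of RPS6. The part of this overlap in their counts was not tested. RPS19, the gene most often mutated in Diamond-Blackfan anaemia, had a log2 fold change of 0.098 ± 0.26. Of the 19 genes listed for that anaemia, 18 were tested, 0 were called (0.767% of all genes) and 15 were above 0, where 68 of the 82 ribosomal protein genes and 46.6% of all genes were, and the median was 0.09.

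Lists by place in the ribosome are set beside the family's median of 0.10 and the median of -0.02 for all genes. The 8 genes for proteins near the exit of the peptide tunnel had a median log2 fold change of 0.03, from -0.16 (RPL17) to 0.27 (RPL39). The 8 genes for proteins along the mRNA path of the small subunit had a median of 0.10, from -0.10 (RPS15) to 0.37 (RPSA), and 0 genes of either list were called, against 0.767% of all genes. Genes with a 5′ tract had a median of 0.12 (46 tested) and those with a promoter but no tract at the annotated start had 0.06 (19 tested).

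Next to RPLP0 in the order were RPL22L1, RPL30, RPS29 and RPSA, none of them called. RPL22L1, a copy that can take the place of the RNA-binding protein RPL22, had 275.3, 212.6 and 159.0 CPM in control.si and 284.3, 408.9 and 240.7 in RIPK4.si, with a log2 fold change of 0.53 ± 0.25 (adjusted p = 0.499, edgeR's quasi-likelihood test). The groups overlapped, because RIPK4.si replicate 3 lay below control.si replicate 1. RPL30 had a log2 fold change of 0.44 ± 0.25 and RPS29 of 0.39 ± 0.27. An antisense gene, RPL30-AS1, overlaps 51.4% of the RPL30 transcript, and counting was unstranded. RPSA, the small-subunit protein also known as a laminin receptor, had 0.37 ± 0.25, from 1471, 1192 and 835.8 CPM in control.si to 1306, 1970 and 1261 in RIPK4.si. RPSA has 17 pseudogene rows in the table, each with at most 262 counts in a library, beside 26549 to 56918 counts of RPSA. These values rested in part on single libraries. Without RIPK4.si replicate 2 the log2 fold changes of RPL22L1, RPL30, RPS29 and RPSA were 0.29, 0.28, 0.18 and 0.15, without control.si replicate 3 they were 0.36, 0.22, 0.16 and 0.19, and without control.si replicate 1 they were 0.76, 0.64, 0.65 and 0.59.

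At the low end, RPL36 (ENSG00000130255.13, GRCh38 chr19:5674947-5691875, plus strand), a small protein of the large subunit, had 323.1, 199.8 and 120.8 CPM in control.si and 154.2, 164.2 and 137.0 in RIPK4.si. The RIPK4.si libraries lay within the wide control.si range, and the log2 fold change was -0.50 ± 0.30 (adjusted p = 0.650, edgeR's quasi-likelihood test). Leaving out 1 library at a time gave log2 fold changes of -0.78 to -0.06, the last without control.si replicate 1 (adjusted p of 0.0868 to 0.992, edgeR). RPL36A and RPL17 had low levels in all libraries, at 0.266 to 0.818 and 1.64 to 6.26 CPM, and log2 fold changes of -0.27 ± 0.50 and -0.16 ± 0.45. The exons of other annotated genes overlap 43.8% and 96.9% of their transcripts, and 84.0% of that of RPS10, which was under 1 CPM throughout. The part of this overlap in the low counts was not tested.

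Because the whole family shifted between libraries, each gene was also expressed as a percent of the family's counts. On this scale, on which a higher share of one gene lowers the others, the groups did not overlap for 13 of the 82 genes (15.9%), 7 higher and 6 lower in RIPK4.si. Among all genes, counts relative to the same sum did not overlap for 11.4%, with 2.67% higher and 8.68% lower. Higher were RPLP0, RPL22L1, RPL30, RPS29, RPSA, RPS12 and RPL13A, and lower were RPL36, RPL23, RPL15, RPL36AL, RPL37A and RPS7. RPL22L1 took 0.485%, 0.5002% and 0.529% in control.si and 0.626%, 0.716% and 0.596% in RIPK4.si, while RPL36 took 0.570%, 0.470% and 0.402% against 0.340%, 0.287% and 0.339%. Apart from RPLP0 at 0.83, the log2 ratios of mean shares ran from -0.58 (RPL36) to 0.36 (RPL22L1), and 68 of the 82 genes lay within 0.2 of zero. With each library scaled to the family's summed counts in edgeR, a choice made after seeing the data, 0 of the 82 genes and 0 of all 16297 were called (886 of all genes had an unadjusted p under 0.05), and the adjusted p of RPLP0 was 0.382.

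**Figure D4:**
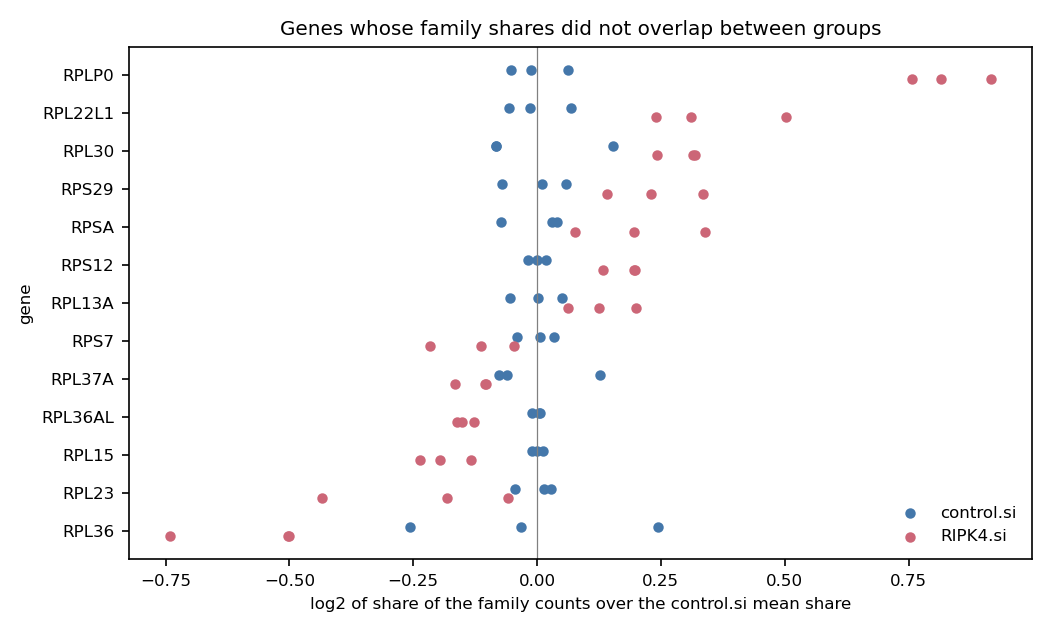
Share of the family's counts in each library relative to the mean control.si share (log2, horizontal axis) for the 13 genes whose groups did not overlap, with 1 point per library. RPLP0 had the widest gap, with a log2 ratio of mean shares of 0.83, and RPL36 at -0.58 was at the other end.

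The diverged copies are kept apart because each is encoded by a gene of its own and can differ from its parent in tissue or role. RPL22L1 was counted 3.26 to 7.43 times as often as RPL22 in the 6 libraries, and the ratios overlapped between the groups. RPL26L1 had 24.25 ± 5.51 CPM in control.si and 30.9 ± 7.80 in RIPK4.si (log2 fold change 0.35 ± 0.23, from 0.13 without RIPK4.si replicate 2 to 0.51 without control.si replicate 1), and RPL39L, a copy enriched in testis, had 15.3 ± 4.47 and 15.97 ± 5.21 CPM (0.064 ± 0.28). RPL36AL, a near-identical copy of RPL36A, had 142.5 ± 43.4 and 142.3 ± 24.1 CPM (-0.0019 ± 0.23). How far the reads of RPL36AL and RPL36A can be told apart was not tested. RPL7L1, which acts in assembly of the large subunit, had 71.97, 93.17 and 127.3 CPM in control.si and 108.8, 58.08 and 101.3 in RIPK4.si (-0.12 ± 0.27). It was lowest in RIPK4.si replicate 2, where most ribosomal protein genes were high, and highest in control.si replicate 3, the library in which they were low. RPS19BP1 had 30.4 ± 16.8 and 30.03 ± 3.54 CPM (-0.015 ± 0.34). RPL3L had at most 6 counts in a library.

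Ribosome components with other symbols behaved like the family. FAU, made as a fusion that yields eS30, had 162.4 ± 56.8 CPM in control.si and 189.3 ± 43.5 in RIPK4.si (log2 fold change 0.22 ± 0.26), and RACK1, a scaffold on the small subunit, had 951.4 ± 247.5 and 1027 ± 194.1 CPM (0.11 ± 0.23). Both overlapped between the groups and were lowest in control.si replicate 3.

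Lists of genes that act with the ribosome had smaller median shifts between libraries. Median deviations of translation factor genes lay between -0.07 and 0.21 (log2 CPM) over the 6 libraries, and those of assembly factors between -0.04 and 0.09. Single genes moved in both directions, so small medians do not show that each gene shifted less. In control.si replicates 1 to 3, BOP1 had 75.5, 47.1 and 29.0 CPM and UTP20 had 32.8, 44.7 and 69.0 CPM. Mitochondrial ribosomal protein genes, in contrast, followed the cytosolic family in part, with 0.35, -0.03 and -0.31 in control.si and -0.04, 0.19 and -0.14 in RIPK4.si.

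Of 41 translation factor genes tested, 0 were called and 2 had an unadjusted p under 0.05 (edgeR's quasi-likelihood test), against 0.767% and 10.8% of all genes. These were EIF4H, a cofactor of the eIF4A helicase, at -0.41 ± 0.17, and PABPC4, a poly(A)-binding protein, at 0.33 ± 0.14. Of 61 ribosome assembly genes, 0 were called and 2 had an unadjusted p under 0.05, against the same shares of all genes, with a range from -0.39 (LSG1, a GTPase of large-subunit maturation) to 0.43 (NOB1, the nuclease that ends 18S rRNA processing). Without RIPK4.si replicate 2, LSG1 was at -0.19 and NOB1 at 0.23. The 2 genes at an unadjusted p under 0.05, named after their values were seen, were RRN3, an initiation factor of RNA polymerase I (-0.39 ± 0.14), and LTV1, an assembly factor of the small subunit (-0.37 ± 0.16). DESeq2 called 0 genes in either list, against 2.91% of all genes. The medians of the lists were 0.05 and 0.03.

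Of 32 regulators of ribosomal protein mRNAs or of ribosome quality control, 0 were called by edgeR's quasi-likelihood test, with 3 at an unadjusted p under 0.05 (0.767% and 10.8% of all genes), a median of -0.01 and a range from -0.69 (RPS6KA1) to 0.54 (EIF4EBP1). RPS6KA1, a kinase that phosphorylates RPS6, had 57.9, 53.8 and 40.1 CPM in control.si and 30.4, 35.8 and 28.2 in RIPK4.si, with no overlap, as for 17.6% of all genes (adjusted p = 0.160 by edgeR's quasi-likelihood test, 0.0645 by DESeq2 and 0.0185 with the GC trend removed). RNF10, a ubiquitin ligase of small-subunit proteins on stalled ribosomes, was named after its values were seen: it had 96.1, 104.6 and 93.9 CPM in control.si and 60.3, 70.3 and 58.3 in RIPK4.si, with adjusted p-values of 0.0966 by edgeR, 0.0224 by DESeq2 and 0.0312 with the GC trend removed. The last of the 3, LARP4B, an RNA-binding protein also named after its value was seen, had -0.39 ± 0.16. EIF4EBP1, the repressor of cap-dependent initiation, had 85.8, 54.3 and 37.6 CPM in control.si and 91.6, 86.3 and 79.6 in RIPK4.si, and its groups overlapped. Its log2 fold change was 0.92 without control.si replicate 1 and 0.30 without control.si replicate 3. Of 77 mitochondrial ribosomal protein genes, 0 were called by edgeR (0.767% of all genes), 0 by DESeq2 (2.91% of all genes), and 4 had an unadjusted p under 0.05, against 10.8% of all genes (MRPS9, MRPL30, MRPL45 and MRPL53), with a median of -0.02 and a range from -0.51 (MRPS9) to 1.08 (MRPL53). MRPL53 was near the floor, at 0.19 to 0.95 CPM over the 6 libraries.

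**Figure D5:**
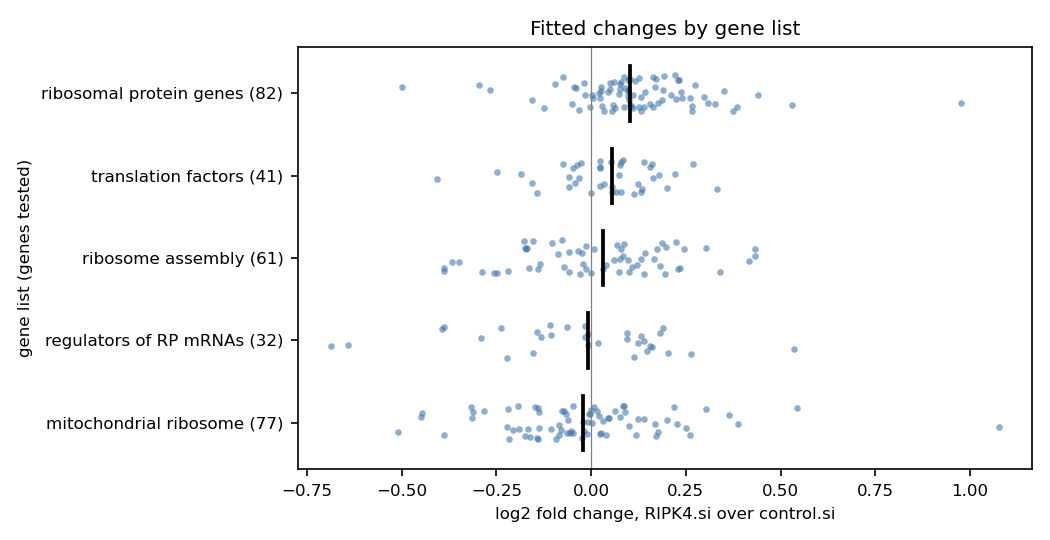
Fitted log2 fold change of RIPK4.si over control.si (horizontal axis) for the genes tested in each list, with 1 point per gene and a bar at the median. Medians lay between -0.02 for mitochondrial ribosomal protein genes and 0.10 for cytosolic ribosomal protein genes, and RPLP0 at 0.98 was the highest of the cytosolic ribosomal protein genes.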

How the data were processed

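Poly(A) RNA of 6 WM266.4 libraries was sequenced as read pairs on the BGISEQ-500. The authors used cutadapt for trimming, TopHat with GRCh38.p13 for alignment and unstranded HTSeq for counting. The deposited count table holds whole read pairs for genes with at least 6 in total. The deposited signal values are counts divided by DESeq2 size factors. The deposited fold values (a ratio), log2 fold changes with their standard errors, and p-values are the authors' own DESeq2 comparison and were not used.

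Counts were tested with edgeR 4.0.16 in R 4.3.3 (TMM, the default filter on low counts, quasi-likelihood test of group, Benjamini-Hochberg adjustment over 16297 genes, threshold 0.05). The study used DESeq2; here DESeq2 1.42.0 was an alternative. CPM used TMM library sizes. Transcript length, GC content and exon sharing came from GENCODE release 44, and promoters from RefSeq GRCh38.p14. On simulated counts with 200 changed genes (16373 genes tested), edgeR called 67% of changes of 1 and 100% of changes of 2 (log2), with 6 of 16173 unchanged genes called. Library totals were about equal, so depth mainly limits low genes such as RPL36A. Named genes were the 5 highest and 5 lowest changes, the 5 highest mean CPM, the diverged copies, 10 genes of known role, and the extremes of each list; some genes that meet this rule are left out here. The members and lists were chosen with earlier results of these data known. Alternatives were other scalings, filters, a GC trend removed (lowess span 0.3), a replicate block and each library left out.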

Additional observations from a re-analysis of the deposited data

How the results depend on the processing

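No ribosomal protein gene was called by edgeR under the other scalings, either filter, the replicate block or any left-out library; DESeq2 and the fit with the GC trend removed each called 1, RPLP0. Over all genes the count of 125 called became 437 with DESeq2, 556 with the GC trend removed and 0 with libraries scaled to ribosomal protein counts (chosen after seeing the data), a scaling that moved the median of all genes from -0.02 to -0.23. Of 32 regulators, those called went from 0 to 1 with DESeq2 and 2 with the GC trend removed, where 2.91% and 3.42% of all genes were called. Same-numbered libraries had correlations of -0.24, 0.25 and 0.35, so the numbers were not taken as pairs; with a replicate block, 131 genes were called and RPLP0 had a log2 fold change of 1.01 (adjusted p = 0.0550).

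RIPK4 was at -2.02 scaled to ribosomal protein counts (adjusted p = 0.256) and at -2.06 to -1.74 over left-out libraries, and was no longer called without control.si replicate 2 or without any 1 of the RIPK4.si replicates (adjusted p up to 0.106). Leaving out control.si replicates 1, 2 and 3 gave 70, 0 and 295 called genes, and RIPK4.si replicates 1, 2 and 3 gave 0, 4 and 0; regulators called ran from 0 to 1. Fewer libraries were fitted there; the other causes were not tested. Directions near zero turned. Scaled to ribosomal protein counts, RPS4X was at -0.093, RPL39L -0.10, RPL5 -0.092, RPL11 -0.064, RPS6 -0.070, RPS3 -0.11, RPS19 -0.0076, RPLP1 -0.035 and RACK1 -0.046, since the family's sum is then fixed. RPL17 was at 0.00770 with the replicate block. RPL36AL was at 0.0104 with DESeq2, 0.00616 with its size factors, 0.00227 with TMM without ribosomal protein and mitochondrial genes, 0.00862 without a filter, 0.0319 with the block and 0.00503 with upper-quartile scaling. RPS19BP1 was at 0.0313 with the GC trend removed and 0.127 with the block. Over left-out libraries, log2 fold changes ran from -0.56 to 0.21 for RPL36A, -0.50 to 0.58 for RPL17, -0.28 to 0.12 for RPL7L1, -0.17 to 0.12 for RPL4, -0.074 to 0.25 for RPS4X, -0.032 to 0.45 for RPL3, -0.11 to 0.45 for RPL41, -0.20 to 0.26 for RPL36AL, -0.22 to 0.26 for RPL39L, -0.31 to 0.53 for RPS19BP1, -0.036 to 0.24 for RPL5, -0.13 to 0.35 for RPL11, -0.063 to 0.31 for RPS6, -0.22 to 0.33 for RPS3, -0.13 to 0.44 for RPS19, -0.00057 to 0.44 for RPL10, -0.091 to 0.36 for RPLP1, -0.0097 to 0.60 for RPLP2, -0.00050 to 0.52 for FAU and -0.076 to 0.30 for RACK1.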
